A study of Sus scrofa with 90 samples.

Results

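The genes followed here, in pig muscle with healing chemical lesions, are ANPEP, FN1 and POMGNT1. Their products work at the cell surface (ANPEP), in the matrix around cells (FN1) or inside the cell on a surface protein (POMGNT1). The genes were read from all array features that carry 1 of these symbols alone and have a value in every column. That gives 4 features (ANPEP 2, FN1 1 and POMGNT1 1) out of 1908 features with complete values, 206 of which carry a single gene symbol. The genes were chosen by their measured differences from control in these samples, mainly the differences of ANPEP and POMGNT1 at 7 d and 21 d. Those differences, and the steps from 2 d to 7 d and from 7 d to 21 d, are therefore given as descriptions without a p-value, for FN1 as well.

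The animals were 10 piglets, named C to L, and their age and breed do not appear in the labels. The agent was propylene glycol, a solvent that serves as a vehicle for injected drugs and damages muscle where it is injected. Each animal carried Longissimus dorsi (back muscle) lesions of 6 h, 2 d, 7 d and 21 d together with a site without injection, which served as control. The control sites thus come from animals that also carried lesions, and no sample comes from an animal without any injection. There were 10 control samples, 10 lesions of 6 h, 10 of 2 d, 9 of 7 d (pig J is not among them) and 9 of 21 d (pig L is not among them).

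ANPEP encodes aminopeptidase N, also called CD13, a zinc peptidase anchored in the plasma membrane that removes amino acids from the N-terminus of peptides outside the cell. It is carried by myeloid cells, fibroblasts and some endothelial cells, among others. FN1 encodes fibronectin, a secreted glycoprotein that cells assemble into fibrils and to which integrins and collagen bind, and which is part of the early matrix of a wound. POMGNT1 is an enzyme of the Golgi apparatus that adds N-acetylglucosamine to O-linked mannose. Its best known substrate is alpha-dystroglycan, the surface protein through which the muscle fibre binds laminin, and inherited loss of the enzyme causes a muscular dystrophy.

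Each of 48 muscle samples was hybridised to 1 nylon array as cDNA labelled with 33P. The deposited values are logarithms, and no source used here names their base. One unit would mean 2-fold in base 2 and 2.72-fold in natural logarithms, so no fold changes are given. The values below were quantile-normalized across arrays unless they are called table values, which are the deposited ones. The SD of table values within an array was 0.976 ± 0.237 (SD, n = 10) in controls. It was 0.744 ± 0.093 (SD, n = 9, without pig F) at 6 h and 0.805 ± 0.099 (SD, n = 10) at 2 d. At 7 d it was 0.607 ± 0.158 (SD, n = 9) and at 21 d 0.643 ± 0.196 (SD, n = 9). The mean spread of the arrays was thus lower at every lesion age than in controls, but did not follow the order of age. Its part in the results below was tested only by adding it to the model. The 6 h array of pig F stood apart: against the mean over the remaining arrays it gave r = 0.240 as listed and at r = 0.739 when moved by 384 features along the list (910 features). The other 47 arrays gave r of at least 0.718 in place. It was left out, so 6 h has n = 9 below, and the 6 h differences with it are given beside the others. Which DNA clone lies under each feature could not be checked, so a symbol is the annotation's name for a feature.

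Of the 2 features listed as ANPEP, feature 5115 was higher than control in the lesions of 7 d and 21 d, while feature 4970 overlapped with control at every age. In control muscle feature 5115 had a mean of 0.13 ± 0.16 log units (SD, n = 10), with a lowest value of -0.18, a median of 0.14 and a highest of 0.38. At 6 h the mean was 0.29 ± 0.21 (SD, n = 9), over a range of -0.02 to 0.68 with a median of 0.29. These 2 groups overlapped over most of their range. At 2 d the mean was 0.32 ± 0.25 (SD, n = 10), with values from 0.01 to 0.93 and a median of 0.25. The highest of these, 0.93, belonged to pig D, and the other 9 lesions of 2 d lay between 0.01 and 0.50. At 7 d the mean reached 0.76 ± 0.34 (SD, n = 9), with values from 0.25 to 1.25 and a median of 0.74. Of the 9 lesions of 7 d, 8 lay above the highest control, and the exception was pig G at 0.25. At 21 d the mean was 1.26 ± 0.35 (SD, n = 9), with a lowest value of 0.90, a median of 1.10 and a highest of 1.81. All 9 lesions of 21 d lay above all 10 controls. This gene was chosen by its late differences, and the share of all features that separate as fully is not given here.

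Set against control in the model with animal as a block, ANPEP feature 5115 was higher by 0.17 (SE 0.120) at 6 h, in 7 of 9 animals, with an adjusted p of 0.408 by limma. At 2 d it was higher by 0.19 (SE 0.116), in 8 of 10 animals, with an adjusted p of 0.609 by limma. Neither early difference passed the threshold of an adjusted p below 0.05. The difference was 0.64 (SE 0.120) at 7 d, higher in 8 of 9 animals, and 1.12 (SE 0.120) at 21 d, higher in 9 of 9 animals. The 4 comparisons share their control samples, so the early p-values are not independent of the choice of the genes. Within animals the 21 d difference ran from 0.62 in pig G to 1.98 in pig D, the animal with the lowest control value, and pig G, with the highest control value, was also the one animal that was lower at 7 d, by -0.12. At 21 d, 8 of the 1908 features had a greater difference from control, and 1 of these carried a single symbol, XIRP2. Since ANPEP was chosen by its late differences, nothing is read from this rank.

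From age to age, feature 5115 of ANPEP held its means in the order control, 6 h, 2 d, 7 d and 21 d. The neighbours 6 h and 2 d differed by 0.03 (SE 0.120), with an adjusted p of 0.938 by limma, which is less than the spread between animals. From 2 d to 7 d the value was higher by 0.45 (SE 0.120), in 8 of 9 animals, but on table values this step was 0.27 and was not called. From 7 d to 21 d it was higher again by 0.48 (SE 0.124), in 7 of 8 animals, the exception being pig H. This step was not called. Without the animal block it was 0.50, and over the alternatives it ran from 0.35 to 0.50. On table values it was higher in 5 of 8 animals and lower in 3.

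After normalization the other ANPEP feature, 4970, stayed near one level throughout. Its means were -0.35 ± 0.16 (SD, n = 10) in control, -0.42 ± 0.09 (SD, n = 9) at 6 h, -0.34 ± 0.30 (SD, n = 10) at 2 d, -0.34 ± 0.13 (SD, n = 9) at 7 d and -0.33 ± 0.18 (SD, n = 9) at 21 d. All 5 groups overlapped. The differences from control were -0.04 (SE 0.0884) at 6 h, with an adjusted p of 0.827 by limma, and 0.01 (SE 0.0854) at 2 d, with an adjusted p of 0.948 by limma. At 7 d and at 21 d the difference was 0.01, with an SE of 0.0884. On table values it was 0.24 at 7 d and 0.20 at 21 d, higher in 7 of 9 animals each time, and was not called. With the array SD in the model it was -0.13 and -0.12. The wide SD at 2 d came from 2 animals, pig F at 0.35 and pig I at 0.06, while the remaining lesions of 2 d lay between -0.62 and -0.37. Feature 4970 was among the 0.25 of features with the lowest mean value. Its mean normalized value over 47 samples was -0.36, and only 6.08% of features had a lower mean. Whether this low level limited the change it could show was not tested. Over 47 samples the ANPEP features correlated with each other at r = 0.15, and at r = 0.16 after the group means were removed. The median over 347 pairs of features that share a symbol (31 genes) was 0.02, and 110 of those pairs had a higher r than the ANPEP pair, so features that share a symbol often differed on these arrays. Whether the ANPEP features differ in their change was not tested.

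**Figure D1:**
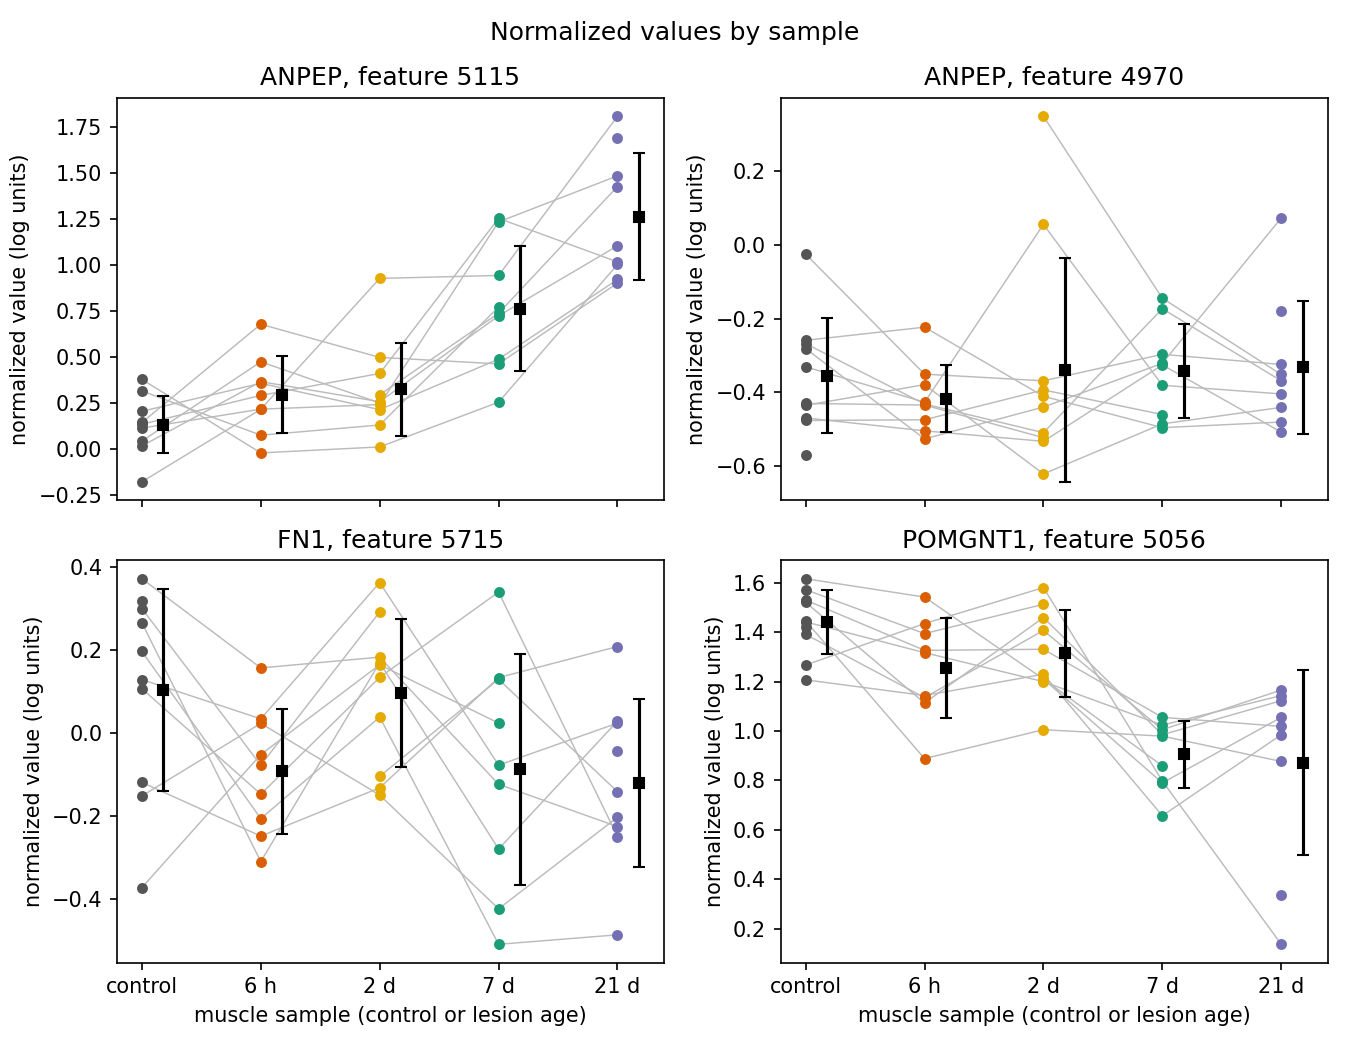
Normalized values in log units (vertical axes, each with its own range) of the 4 features in control muscle and at 4 lesion ages (horizontal axis). Points are muscle samples, grey lines join samples of the same pig at consecutive ages, and black squares with bars are group means ± SD (n = 9 or 10). Feature 5115 of ANPEP lies at 0.90 to 1.81 at 21 d against -0.18 to 0.38 in control, POMGNT1 lies at 0.66 to 1.06 at 7 d against 1.21 to 1.62 in control, and the groups of ANPEP feature 4970 and of FN1 overlap.

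POMGNT1, the glycosyltransferase, ran the other way, and its normalized value was lower in every animal at 7 d and 21 d. Its control values had a mean of 1.44 ± 0.13 log units (SD, n = 10), with a lowest value of 1.21, a median of 1.44 and a highest of 1.62. At 6 h the mean was 1.25 ± 0.20 (SD, n = 9), with values from 0.89 to 1.54 and a median of 1.32. The mean was 1.31 ± 0.18 (SD, n = 10) at 2 d, with values from 1.01 to 1.58 and a median of 1.28. Both early groups overlapped with the controls. At 7 d the mean was 0.91 ± 0.14 (SD, n = 9), with values from 0.66 to 1.06 and a median of 0.98. At 21 d it was 0.87 ± 0.37 (SD, n = 9), with a lowest value of 0.14, a median of 1.02 and a highest of 1.17. All 9 lesions of 7 d and all 9 lesions of 21 d lay below all 10 controls. The gene was chosen by these differences, and the share of all features that separate as fully is not given here. The larger SD at 21 d came from pig K at 0.14 and pig J at 0.34, and the other 7 lesions of that age lay between 0.88 and 1.17. The 21 d array of pig J was the kept array least like the mean over the others (r = 0.718), while that of pig K gave r = 0.904. Whether this bears on their values was not tested.

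The POMGNT1 difference from control was -0.19 (SE 0.103) at 6 h, lower in 8 of 9 animals, with an adjusted p of 0.245 by limma. At 2 d it was -0.13 (SE 0.0996), lower in 7 of 10 animals, with an adjusted p of 0.695 by limma. At 7 d the difference was -0.54 (SE 0.103) and at 21 d -0.56 (SE 0.103), lower in 9 of 9 animals each time. Animals ranged from -0.76 to -0.39 at 7 d and, more widely, from -1.23 in pig J to -0.22 in pig G at 21 d. The median within animals at 21 d was -0.40. The 21 d difference was -0.47 without pig J and -0.48 without pig K. Between ages, 2 d minus 6 h was 0.06 (SE 0.103) with an adjusted p of 0.800 by limma, 7 d minus 2 d was -0.41 (SE 0.103, lower in 9 of 9 animals), and 21 d minus 7 d was -0.02 (SE 0.107). At 7 d, 60 of the 1908 features had a more negative difference than POMGNT1, 4 of them with a single symbol. At 21 d, 16 features had a more negative difference and none of them carried a single symbol. Since POMGNT1 was chosen by these differences, nothing is read from its ranks.

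The size of the POMGNT1 difference depended on the scale. On table values it was -1.20 at 7 d and -1.24 at 21 d. At 6 h it was -0.72 with an adjusted p of 0.00895 by limma. The 6 h difference thus passed on table values and did not after normalization. The 6 h test uses the controls that entered the choice of the gene, so its p-value is not independent of that choice. Table values of POMGNT1 rose and fell with the SD of values within the array, at r = 0.93 over 47 samples. After quantile normalization that r was 0.48, and it was 0.07 once the group means were removed. With the array SD as a term in the model the POMGNT1 difference was -0.47 at 7 d and -0.49 at 21 d. On table values POMGNT1 was lower than control in 8 of 9 animals at 7 d and in 8 of 9 at 21 d. The exception at both ages was pig C, at 0.98 in control, 1.17 at 7 d and 1.71 at 21 d. This pig had the narrowest control array (SD 0.528), and after normalization its values were 1.53, 1.06 and 1.02.

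FN1, the matrix protein, overlapped with control at every lesion age. Its mean was 0.10 ± 0.24 log units (SD, n = 10) in control, with values from -0.37 to 0.37. The means were -0.09 ± 0.15 (SD, n = 9) at 6 h, 0.10 ± 0.18 (SD, n = 10) at 2 d, -0.09 ± 0.28 (SD, n = 9) at 7 d and -0.12 ± 0.20 (SD, n = 9) at 21 d. All groups overlapped, and the lowest control, pig L at -0.37, lay below all but 2 of the lesions of 7 d. The difference from control was -0.19 (SE 0.0971) at 6 h, lower in 7 of 9 animals, with an adjusted p of 0.201 by limma, and -0.01 (SE 0.0939) at 2 d, with an adjusted p of 0.978 by limma. It was -0.18 (SE 0.0971) at 7 d, lower in 6 of 9 animals, and -0.23 (SE 0.0971) at 21 d, lower in 8 of 9 animals. Lesions of 2 d exceeded those of 6 h by 0.18, with an adjusted p of 0.330 by limma.

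FN1 followed the spread of the array more closely than most features. Its normalized values correlated with the SD of table values within the array at r = 0.68 over 47 samples, at r = 0.63 after the group means were removed, and 39 of 1908 features had a higher r. With that SD in the model the FN1 differences from control at the 4 ages in order were -0.01, 0.12, 0.09 and 0.03, so those of 2 d, 7 d and 21 d turned sign. The FN1 difference at 21 d was -0.26 when arrays were weighted by their quality, -0.30 without pig C and -0.28 without pig L.

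**Figure D2:**
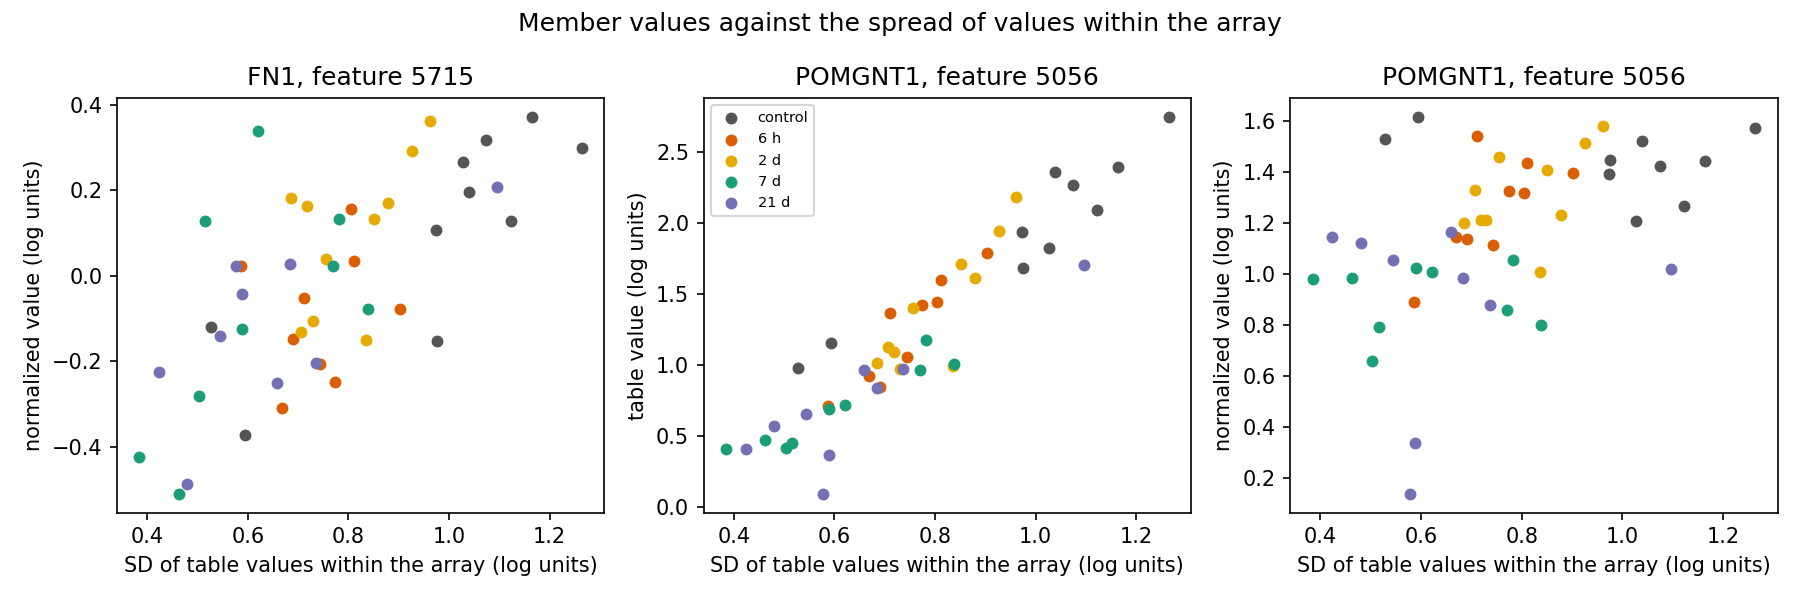
Values of FN1 (left, normalized) and of POMGNT1 (middle, table values; right, normalized) against the SD of table values within each array, all in log units, with 1 point for each of 47 muscle samples coloured by control or lesion age. FN1 rises with the array SD (r = 0.68), and the table values of POMGNT1 rise with it more closely (r = 0.93) than its normalized values do (r = 0.48).

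The number of the 4 features that passed was read beside that of all features. At 6 h 0 of 4 were called, against 11.8% of the 1908 features, and at 2 d 0 of 4, against 0.734%. At an unadjusted p below 0.05 by limma these counts were 0 of 4 at both ages. At 7 d 2 of 4 were called against 25.4% of all features, and at 21 d 2 of 4 against 14.7%. From 2 d to 7 d 2 of 4 were called against 16.5%. The genes were chosen on those late differences, so nothing is read from these shares. From 6 h to 2 d 0 of 4 were called, against 6.18%, and 0 of 4 at an unadjusted p below 0.05 by limma. From 7 d to 21 d 0 of 4 were called against 0.681%, with 1 of 4 at an unadjusted p below 0.05 by limma, and nothing is read from this step either.

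The late differences of ANPEP feature 5115 kept their sign on every scale tried, which is no support, since the gene was chosen by them. On table values the feature was higher by 0.47 at 7 d and 0.87 at 21 d, and with the array SD in the model by 0.57 and 1.06. Among the 10 features with complete values nearest to it in the list, the difference at 21 d ran from -0.34 to 0.17, with 2 called lower. For POMGNT1 the 10 nearest ran from -0.58 to 0.17 at 21 d, with 1 called lower. With the 6 h array of pig F kept, the 6 h difference was 0.12 for ANPEP feature 5115 (adjusted p = 0.572 by limma), -0.04 for ANPEP feature 4970 (adjusted p = 0.812), -0.19 for FN1 (adjusted p = 0.174) and -0.22 for POMGNT1 (adjusted p = 0.154), none of which passed.

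**Figure D3:**
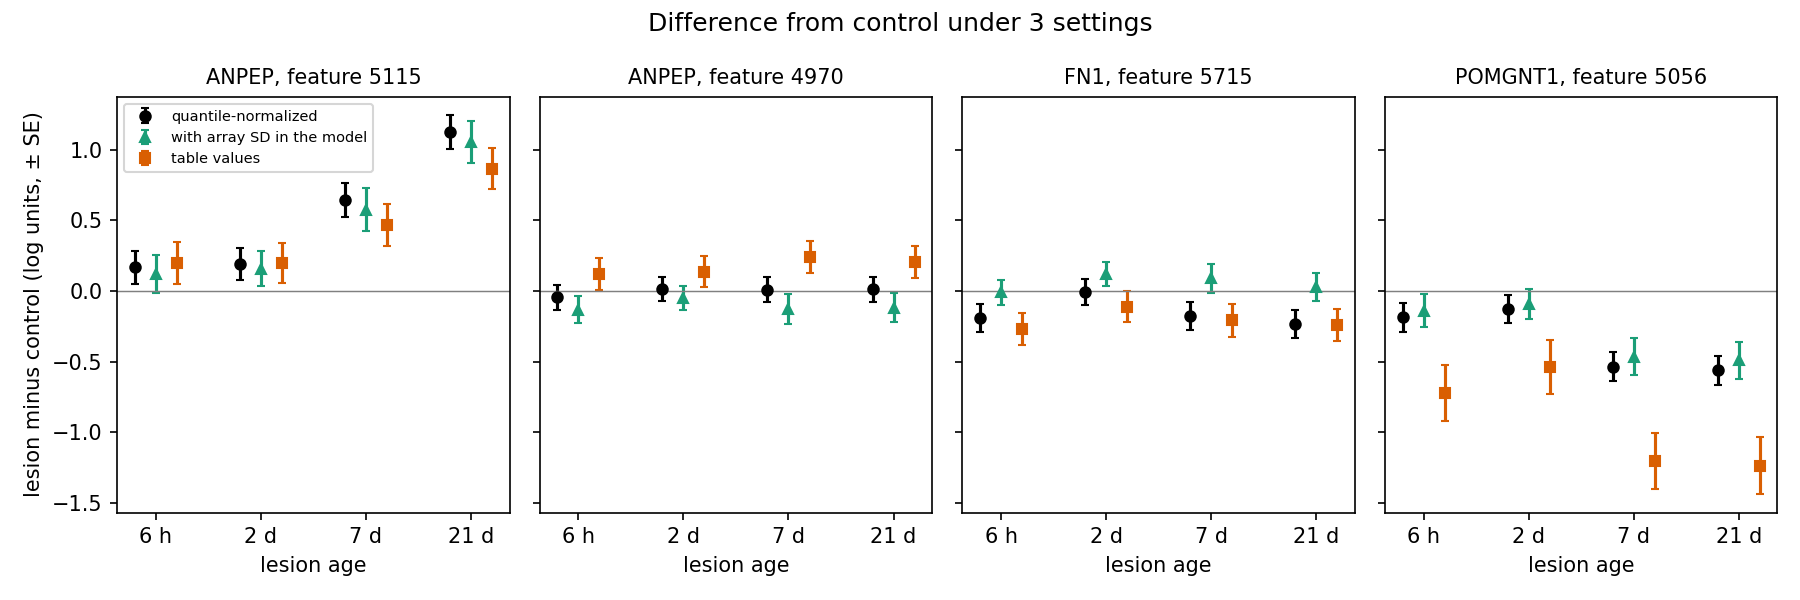
Difference of each lesion age from control in log units (vertical axis, ± SE) for the 4 features, from quantile-normalized values (black circles), from the same with the SD of the array in the model (green triangles) and from table values (orange squares). The differences of ANPEP feature 5115 stay positive at 7 d and 21 d under all 3 settings, those of POMGNT1 stay negative and are larger on table values (-1.24 against -0.56 at 21 d), and FN1 changes sign at 2 d, 7 d and 21 d with the array SD in the model.

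ANPEP feature 5115 and POMGNT1 moved in opposite directions between groups. Over 47 samples they correlated at r = -0.62, and at r = -0.10 after the group means were removed. The difference of the 2 normalized values within a sample, ANPEP minus POMGNT1, went from -1.31 ± 0.21 (SD, n = 10) in control to -0.96 ± 0.25 (SD, n = 9) at 6 h and -0.99 ± 0.37 (SD, n = 10) at 2 d. It then went to -0.14 ± 0.31 (SD, n = 9) at 7 d and 0.39 ± 0.57 (SD, n = 9) at 21 d. The zero of this difference has no meaning, since signals of different features are not on a common scale, and it is given for its change with lesion age. In every lesion of 7 d and 21 d it was higher than in any control. Both genes were chosen by their differences at these ages. Nothing is therefore read from this separation or from the r over all samples.

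**Figure D4:**
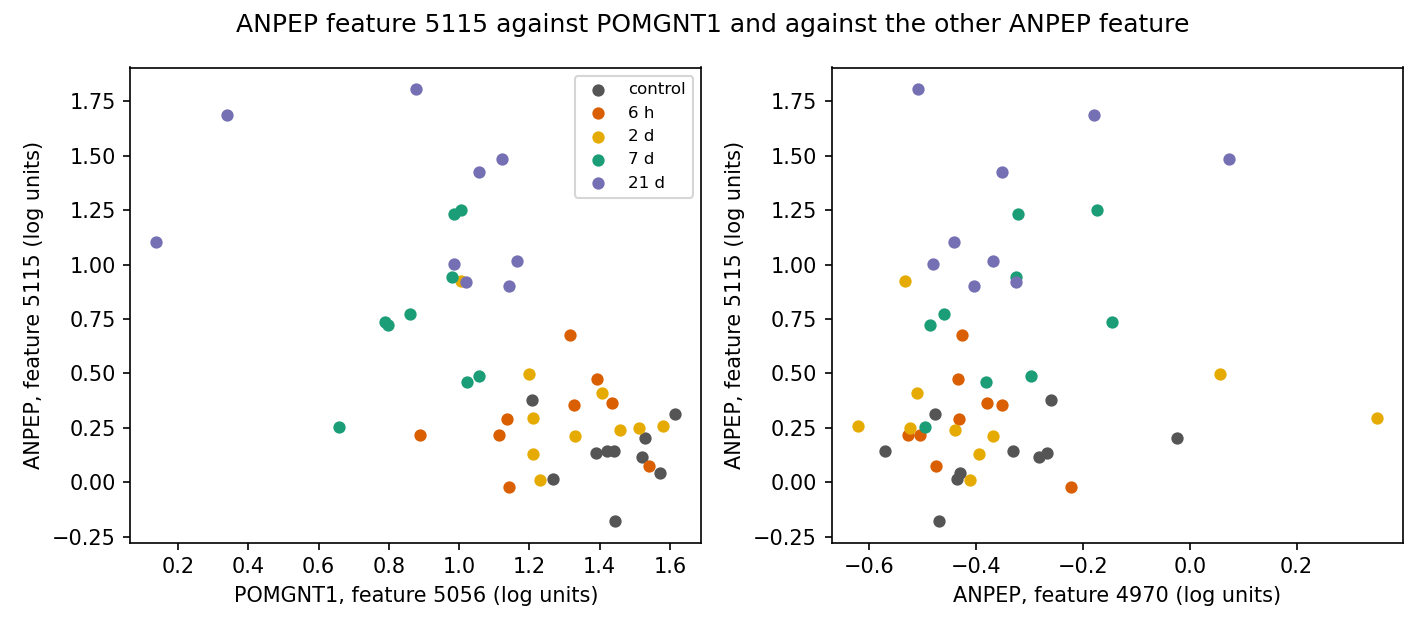
Normalized values in log units of ANPEP feature 5115 (vertical axes) against POMGNT1 (left) and against the other ANPEP feature, 4970 (right), with 1 point for each of 47 muscle samples coloured by control or lesion age. Lesions of 21 d lie at high ANPEP and low POMGNT1 values (r = -0.62 over all samples, -0.10 within groups), whereas the ANPEP features show little relation to each other (r = 0.15).

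Genes whose pattern was most like each feature were ranked by r of normalized values over 47 samples, which share arrays and groups. The ranking covers genes with a single symbol, and features without one could lie closer. Among those genes ANPEP feature 5115 was most like XIRP2, an actin-binding protein of striated muscle, at r = 0.75, while 10 of all 1908 features had a higher r. XIRP2 differed from control by 1.21 at 6 h, by 0.08 at 2 d, by 2.08 at 7 d and by 2.22 at 21 d. Its 6 h difference was thus larger than that of ANPEP, although the difference between the genes was not tested. Next were MYH7, the slow myosin heavy chain, at r = 0.53 (feature 5503) and JAK1, a cytokine receptor kinase, at r = 0.50. Among the 4 MYH7 features the r with ANPEP feature 5115 went down to -0.42. For ANPEP feature 4970 the highest were SELENOW at r = 0.43 (18 features higher), TPM1 at r = 0.41 and DMD at r = 0.38. The r with feature 4970 went down to -0.05 among the 2 SELENOW features and to -0.13 among the 3 TPM1 features. POMGNT1 was most like a feature of CKM, the muscle creatine kinase, at r = 0.68 (feature 5804, with 5 features higher), followed by TNNC2, the fast troponin C, at r = 0.67 and SLC35A4 at r = 0.65. The differences of that CKM feature from control were -0.29, -0.23, -0.45 and -0.46 at the 4 ages in order. The r with POMGNT1 went down to -0.01 among the 10 CKM features and to -0.30 among the 12 TNNC2 features.

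FN1 was most like a feature of MYLPF, the fast regulatory myosin light chain, at r = 0.89 (feature 5355), and no other feature of the 1908 came closer. The 18 MYLPF features had r with FN1 from -0.46 to 0.89, with a median of 0.10 and a second highest value of 0.73, so the likeness belonged to some MYLPF features and not to the symbol. GSTO1 followed at r = 0.76 and ATP5G2 at r = 0.70.

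Few genes related to these members had complete values. Of 12 cell surface peptidases 1 was measured, ANPEP itself. Among 52 matrix proteins 1 was measured, FN1, and among 24 genes of O-mannosyl glycosylation 1, POMGNT1. The list of 44 matrix receptors and members of the dystrophin complex had 1 measured gene, DMD, which encodes dystrophin. DMD differed from control by 0.05, 0.04, 0.05 and 0.07 at 6 h, 2 d, 7 d and 21 d, and none of these passed. Of 41 matrix remodelling enzymes and inhibitors 0 had complete values. Neither integrins, laminins and collagens nor the other enzymes that act on dystroglycan can therefore be set beside the members here.

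Markers of the cells that could carry these products were also scarce. Complete values were held by 0 of 7 fibroblast markers, 0 of 7 macrophage and monocyte markers, 0 of 5 neutrophil markers and 0 of 6 lymphocyte markers. Of 4 endothelial markers 1 was measured, PECAM1, at -0.09, -0.07, -0.06 and -0.07 from control at the 4 ages in order, and it was not called at any age. Of 7 markers of satellite cells and regenerating fibres 1 was measured, DES, which encodes desmin (feature 5372, 1 of 3). It stood at -0.24, 0.07, -0.24 and -0.35 from control at the 4 ages in order (SE 0.232 at 2 d, otherwise 0.240) and was not called either. Nothing on regeneration is read from this 1 gene. Of 8 mature fibre markers 6 were measured. For CKM, feature 5072 (1 of 10) was lower at 6 h, 7 d and 21 d, by 0.25, 0.37 and 0.24 log units, and was called each time. For MYH7, feature 5503 (1 of 4) was higher at the same ages, by 0.36, 0.47 and 0.37, and was called each time. The lists were written with earlier results of these data known, so these calls are given as descriptions without a p-value. The other 4 measured (MYH1, MYH2, TNNT3 and MYLPF) were not called at any age. The mature fibre list thus did not move as one, and the part of its called genes in the differences of ANPEP feature 5115 and POMGNT1 was not tested. In whole tissue a change in the number of cells of a type and a change in RNA per cell cannot be told apart. Over all 121 genes with a single symbol, 12 were called for 6 h lesions, 25 for 7 d and 17 for 21 d, and the median difference from control was -0.03, -0.02, -0.02 and -0.04 at the 4 ages in order.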

How the data were processed

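Muscle RNA from 48 samples was measured on nylon cDNA arrays. The deposited values are log values, already processed by the authors, per the file's own range (-1.33 to 5.00). How the authors made and centred them, and their base, are not given in the sources used here. Of 4608 features listed, 1908 had a value in every column. The duplicate columns of a sample (42 samples; identical in 41) were averaged, and a column of the 6 h lesion of pig J that copied the control of pig I was dropped. The 6 h array of pig F was left out, which leaves 47 arrays. Gene symbols come from the platform annotation, and 204 of the 206 identifiers with 1 symbol, all 4 members among them, matched the current gene table.

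Values were quantile-normalized and fitted with limma 3.58.1 in R 4.3.3 (lmFit and eBayes), with group and animal as terms over all 5 groups. Adjustment of the two-sided p-values was by Benjamini-Hochberg over the 1908 features within each of 7 comparisons, and a feature was called below 0.05. Animals pair the samples because each carried a control and lesions. The median r of deviations from group means was -0.02 within animals (88 pairs) and -0.00 between animals (795 pairs). The script was tested on simulated data. Tables were handled with pandas 2.3.3 and numpy 2.4.6, and figures were drawn with matplotlib 3.10.9.

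The members and gene lists were chosen with earlier results of these data known. Named genes are the members, the 3 genes most like each by Pearson r, and list genes with complete values, up to 3 of a list by the smallest p. Cell type markers with complete values are all named. A gene of a list is called by its feature with the highest mean. Replicates are separate animals. Arrays hold no counts, so their number limits the precision. The 11 alternatives, and leaving out each of 10 animals, are in the closing section.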

Additional observations from a re-analysis of the deposited data

Results flagged for a closer look

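ANPEP feature 5115 had a sample far from the others at 2 d, pig D at 0.93 log units, where the other 9 lesions lay between 0.01 and 0.50. Its gap to the nearest sample was 0.469 of the range of the group, just past the critical value for 10 samples. Chance gives such a value in about 1 of 20 groups, and 20 groups were checked. Pig D also had the lowest control and the highest 21 d value of this feature. Its 2 d array gave r = 0.786 against the mean over the remaining arrays. Among the kept arrays only the 21 d array of pig J gave a lower r (0.718). Whether array quality bears on the 2 d value was not tested.

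The lesion ages 2 d and 7 d differed in their distance from control for both features with late changes. The test of that difference itself is the step from 2 d to 7 d, in which ANPEP feature 5115 was higher by 0.45 and POMGNT1 stood at -0.41. These steps were known when the genes were chosen, so they are given without a p-value.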

How the results depend on the processing

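The differences of ANPEP feature 5115 and POMGNT1 at 7 d and 21 d kept their sign under the alternatives run, which is no support, since the genes were chosen by them. The count of the 4 features called at 6 h was 0. It became 1 on table values, 1 on median-centred values (POMGNT1 -0.71, adjusted p = 0.00666 by limma) and 2 with array weights (ANPEP feature 5115 0.23, FN1 -0.23). The 6 h tests use the controls that entered the choice of the genes, so these calls are not independent of it. From 6 h to 2 d the count was 1 with array weights (FN1 0.23). From 2 d to 7 d it was 1 on table values and 1 on median-centred values, where ANPEP feature 5115 lost its call (0.27 on table values). From 7 d to 21 d it was 1 without the lowest 0.25 of features, 1 without the replicate block and 1 with a random replicate block (ANPEP feature 5115 0.50). Signs also turned for differences that were not called in the reported fit, of which FN1 at 21 d (-0.23) was called with array weights and without pig C or pig L. For ANPEP feature 4970 they were 0.117 (table), 0.126 (median-centred) and 0.00691 (local trend subtracted) at 6 h, -0.0502 (array SD) and -0.0486 (array weights) at 2 d, and -0.127 at 7 d and -0.118 at 21 d with array SD. For FN1 they were 0.121 (array SD), 0.0167 (without the 6 h array of pig J and the pig I control), 0.0540 (local trend) and 0.00179 (array weights) at 2 d, and 0.0899 at 7 d and 0.0267 at 21 d with array SD. The 2 d minus 6 h step of ANPEP feature 5115 was -0.00117 (table), -0.0176 (local trend) and -0.101 (array weights), and the 21 d minus 7 d step of POMGNT1 was 0.0755 (array weights) and 0.0197 (only the groups compared). Leaving out 1 animal in turn gave ranges of -0.0859 to 0.0544 at 2 d, -0.0395 to 0.0399 at 7 d and -0.0322 to 0.0484 at 21 d for ANPEP feature 4970, -0.0704 to 0.0380 at 2 d for FN1, -0.0573 to 0.0559 for the 2 d minus 6 h step of ANPEP feature 5115 and -0.0677 to 0.0582 for the 21 d minus 7 d step of POMGNT1. The causes were not tested. Over the alternatives the count of all features called ran from 148 to 615 at 6 h, 10 to 57 at 2 d, 265 to 782 at 7 d, 111 to 742 at 21 d, 40 to 315 from 6 h to 2 d, 127 to 467 from 2 d to 7 d and 0 to 18 from 7 d to 21 d. Higher against lower calls were 132 and 93 at 6 h, against 103 and 393 on table values, 205 and 279 at 7 d, against 249 and 495, and 124 and 157 at 21 d, against 178 and 530.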

Other observations

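The array of the 6 h lesion of pig F, left out above, listed table values of -0.16 for ANPEP feature 5115, -0.19 for ANPEP feature 4970, -0.09 for FN1 and 0.48 for POMGNT1. In the other 9 lesions of 6 h the table values ran from -0.05 to 0.78, from -0.70 to -0.24, from -0.36 to 0.16 and from 0.71 to 1.79, so 3 of the 4 listed values lay outside the range of the others and that of FN1 did not. At the place 384 features away the array held -0.02 for FN1 and 0.45 for POMGNT1, and none for the ANPEP features.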
